A study of Mus musculus with 9 samples.

Results

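The genes described are 6 that endothelial cells use to control clotting and the breakdown of clots: F8, Vwf, Tfpi, Thbd, Procr and Plat. They were chosen by symbol, with gene identifiers matched to symbols through GENCODE M21 (GRCm38), and 5 of the 6 were among the 11802 genes analysed. F8, which encodes the clotting cofactor factor VIII, was not analysed here. The values are CPM, each gene's reads scaled to a common library total, from RNA bound to tagged ribosomes of mouse white adipose tissue. The 5 KO libraries came from Pdgfb-iCreERT2:Mfn2ideltaEC:Rpl22HA mice, in which the labels give Mfn2 as absent from endothelial cells. The 4 WT libraries came from Pdgfb-iCreERT2:Rpl22HA mice, in which the labels give it as present. Both groups therefore carried the Pdgfb-iCreERT2 driver, a Cre recombinase active in endothelial cells, and the HA-tagged ribosomal protein Rpl22 by which ribosomes were captured. The labels give no age, sex, induction scheme or batch, and they number biological replicates without naming animals, so each p-value below describes variation among libraries, which may be technical.

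Vascular endothelium keeps blood fluid by balancing proteins that start, restrain and undo clotting. Von Willebrand factor, the product of Vwf, is stored in Weibel-Palade bodies, binds platelets at sites of injury and carries factor VIII in plasma. The Tfpi product, tissue factor pathway inhibitor, blocks the tissue factor and factor VIIa complex that starts coagulation. Thrombomodulin (Thbd) binds thrombin and turns it towards activating protein C, and the endothelial protein C receptor (Procr) presents protein C to that complex. Tissue plasminogen activator (Plat) converts plasminogen to plasmin, which dissolves fibrin.

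On GRCm38, Vwf (ENSMUSG00000001930) lies at 125546774 to 125686679 on chromosome 6, plus strand. Tfpi (ENSMUSG00000027082) lies at 84432855 to 84476775, Thbd (ENSMUSG00000074743) at 148404466 to 148408188 and Procr (ENSMUSG00000027611) at 155751117 to 155755471 on chromosome 2. Tfpi and Thbd are on the minus strand and Procr is on the plus strand. Plat (ENSMUSG00000031538) is at 22757727 to 22782844 on chromosome 8, plus strand. Thbd is a gene of 1 exon, and none of the 5 loci overlaps another annotated gene, so their reads had no annotated antisense partner. Of the 5 genes, only Tfpi and Procr had promoter sequences among the sources used here. The bases just upstream of their annotated starts are shown from RefSeq (GRCm38.p6), 5′ to 3′ on the gene's own strand. Capitals mark CACCC, the core that KLF factors bind.

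Procr, chr2:155750967-155751116, plus strand: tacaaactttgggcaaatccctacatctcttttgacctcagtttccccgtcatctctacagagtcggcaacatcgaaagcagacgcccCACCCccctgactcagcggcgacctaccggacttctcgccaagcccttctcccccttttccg
Tfpi, chr2:84476776-84477009, minus strand: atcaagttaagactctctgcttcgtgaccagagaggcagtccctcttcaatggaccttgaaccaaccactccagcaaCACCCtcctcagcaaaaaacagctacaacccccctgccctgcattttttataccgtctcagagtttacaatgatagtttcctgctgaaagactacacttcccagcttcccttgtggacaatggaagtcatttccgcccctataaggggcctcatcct

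CACCC was searched on both strands (GGGTG) and occurred 1 time in each window. Windows of the same length and place hold it at 35.2% of 32851 promoters for the 150 bases of Procr and at 49.8% for the 234 bases of Tfpi. The hexamer AGATAA, bound by GATA factors, had no match on either strand. The hexamer CCGGAA, bound by ETS factors, also had none. The first hexamer was held by 6.54% of promoters at 150 bases and 9.61% at 234 bases, and the second by 5.40% and 10.6%.

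As a check of the labels, Mfn2, which encodes the mitochondrial fusion protein mitofusin 2, was at 130, 35.4, 57.0, 65.6 and 46.0 CPM in KO replicates 1 to 5, against 20.3, 55.8, 30.5 and 38.0 CPM in WT replicates 1 to 4. Its level did not separate the groups (log2 fold change 0.81, adjusted p = 0.131 by limma, or −0.16 relative to the library median), and reads outside a deleted part cannot show the deletion. KO and WT below are therefore the groups as labelled. Listed reads numbered 1615968 to 3829356 in KO and 1034753 to 2501047 in WT. Mitochondrial rRNA (mt-Rnr1 and mt-Rnr2) took 12.8% to 25.2% of reads in KO libraries and 13.9% to 64.8% in WT libraries.

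Across the libraries Vwf was by far the most abundant of the 5 genes and Plat the least. Levels of different genes are compared only as CPM per kilobase of the longest principal transcript. On that scale Vwf was at 91.2 ± 51.3 in KO (SD, n = 5) and 41.2 ± 19.8 in WT (SD, n = 4). Thbd was at 21.3 ± 8.38 in KO and 10.6 ± 4.04 in WT. Procr followed at 9.37 ± 2.61 in KO and 3.45 ± 1.48 in WT.

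Tfpi, at 7.35 ± 4.17 CPM per kilobase in KO and 1.27 ± 1.47 in WT, and Plat, at 2.45 ± 1.89 in KO and 0.927 ± 0.326 in WT, were the lowest. Vwf exceeded each of the other 4 genes in all 9 libraries, and Thbd exceeded Procr, Tfpi and Plat in all 9. The lower part of the order was less fixed, since Tfpi exceeded Procr in 1 library, and Plat exceeded Procr in 1 and Tfpi in 2. The Vwf level was between 1.74 and 6.36 times that of Thbd per kilobase, with a median of 4.34.

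**Figure D1:**
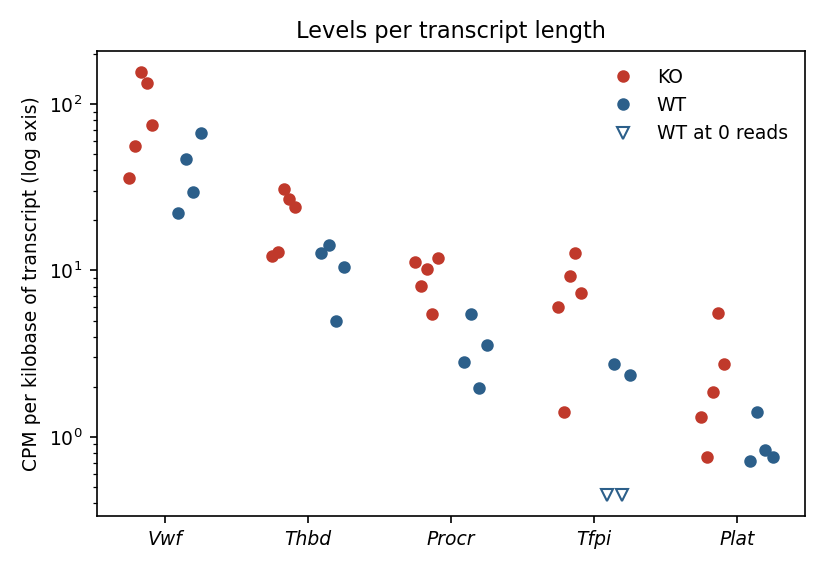
CPM per kilobase of the longest principal transcript on a log axis, for 5 KO libraries (red) and 4 WT libraries (blue) per gene; triangles are the 2 WT libraries with 0 Tfpi reads, drawn at the foot of the axis. Vwf lies above every other gene in all 9 libraries, and Procr, Tfpi and Plat share a lower range.

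All 5 genes had a higher mean CPM in KO than in WT libraries, and 1 of them, Tfpi, passed the test. The test was limma on log2(CPM + 1), with the variance following the mean, fitted to all 11802 genes, with a Benjamini-Hochberg adjusted p under 0.05 as a call. The added 1 shrinks fold changes of low genes. In the same fit 32.0% of all genes were called higher and 0.203% lower, and the median log2 fold change of all genes was 1.10, so 1 of 5 is no more than the background. Of the 5, the median log2 fold change was 1.07, and all 5 lay above 0, as did 94.6% of all genes. Because the whole distribution was displaced, each gene is also given relative to its library's median log2 value, where 0 of the 5 were called, against 0.11% of all genes in either direction (13 genes). At an unadjusted p under 0.05 the relative scale had 1378 genes, or 11.7%. Of the 5, 1 (Tfpi) had an unadjusted p under 0.05 on the relative scale. EdgeR with TMM scaling on the recovered reads called 0 of the 5 and 0.0254% of all genes (11.2% at an unadjusted p under 0.05). DESeq2 gave an adjusted p to 4009 genes and called 3.87% of them. Of the 5, it gave an adjusted p only to Vwf and Thbd, and called 0 of these 2. The median of the 5 on the relative scale was 0.09, beside 0.12 over all genes.

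Vwf was at 318, 492, 1378, 1176 and 664 CPM in KO replicates 1 to 5, against 195, 412, 260.0 and 588 CPM in WT replicates 1 to 4. KO replicates 3, 4 and 5 lay above every WT library, and KO replicates 1 and 2 lay inside the WT range. In the deposited CPM the groups differed by 1.07 on the log2 scale (SE 0.440, 95% interval 0.19 to 1.96, adjusted p = 0.0548 by limma). Set against the library median, the difference was 0.09 (SE 0.354, interval −0.64 to 0.83, adjusted p = 0.940 by limma). The deposited difference passed the threshold in 2 of the 9 fits that left out 1 library. These were without WT replicate 4 (adjusted p = 0.0121 by limma) and without KO replicate 1 (0.0227). In those fits 5916 and 3510 of the 11802 genes were called higher. The highest adjusted p was 0.198 by limma, without WT replicate 1.

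Thbd, the thrombin receptor that turns thrombin to anticoagulant use, was at 45.5, 47.8, 114, 100.2 and 89.0 CPM in KO replicates 1 to 5, against 47.3, 52.6, 18.4 and 39.0 CPM in WT replicates 1 to 4. Again KO replicates 3, 4 and 5 lay above every WT library while KO replicates 1 and 2 lay among them. Its log2 fold change was 1.00 (SE 0.437, 95% interval 0.12 to 1.88, adjusted p = 0.0683 by limma) in the deposited CPM. Set against the library median, it was 0.02 (SE 0.381, interval −0.77 to 0.81, adjusted p = 0.990 by limma). Of the 9 fits that left out 1 library, the deposited difference passed the threshold in 2, without WT replicate 4 or KO replicate 1. Their adjusted p were 0.0484 and 0.0452 by limma, and 5916 and 3510 of the 11802 genes were called higher there. The highest adjusted p was 0.246 by limma, without WT replicate 3.

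Procr, the receptor that hands protein C to the thrombomodulin complex, was the only one of the 5 whose groups did not overlap in CPM. It was at 17.9, 12.9, 16.2, 8.78 and 19.0 CPM in KO replicates 1 to 5, against 4.50, 8.70, 3.15 and 5.70 CPM in WT replicates 1 to 4. The gap between the lowest KO library and the highest WT library was small, 8.78 CPM (15 reads) in KO replicate 4 and 8.70 CPM (22 reads) in WT replicate 2. Such a gap between groups, with the KO libraries higher, was present in 18.7% of the 11802 genes. The log2 fold change was 1.32 (SE 0.570, 95% interval 0.17 to 2.46, adjusted p = 0.0649 by limma), and an exact two-sided permutation test of the CPM of 5 and 4 libraries gave p = 0.0159, where 0.00794 is the smallest possible. Set against the library median, it was 0.34 (SE 0.480, interval −0.66 to 1.34, adjusted p = 0.824 by limma), and the groups overlapped. Of the 9 fits that left out 1 library, the deposited difference passed the threshold in 1, without WT replicate 4 (adjusted p = 0.0439 by limma). In that fit 5916 of the 11802 genes were called higher. The highest adjusted p was 0.146 by limma, without WT replicate 3.

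**Figure D2:**
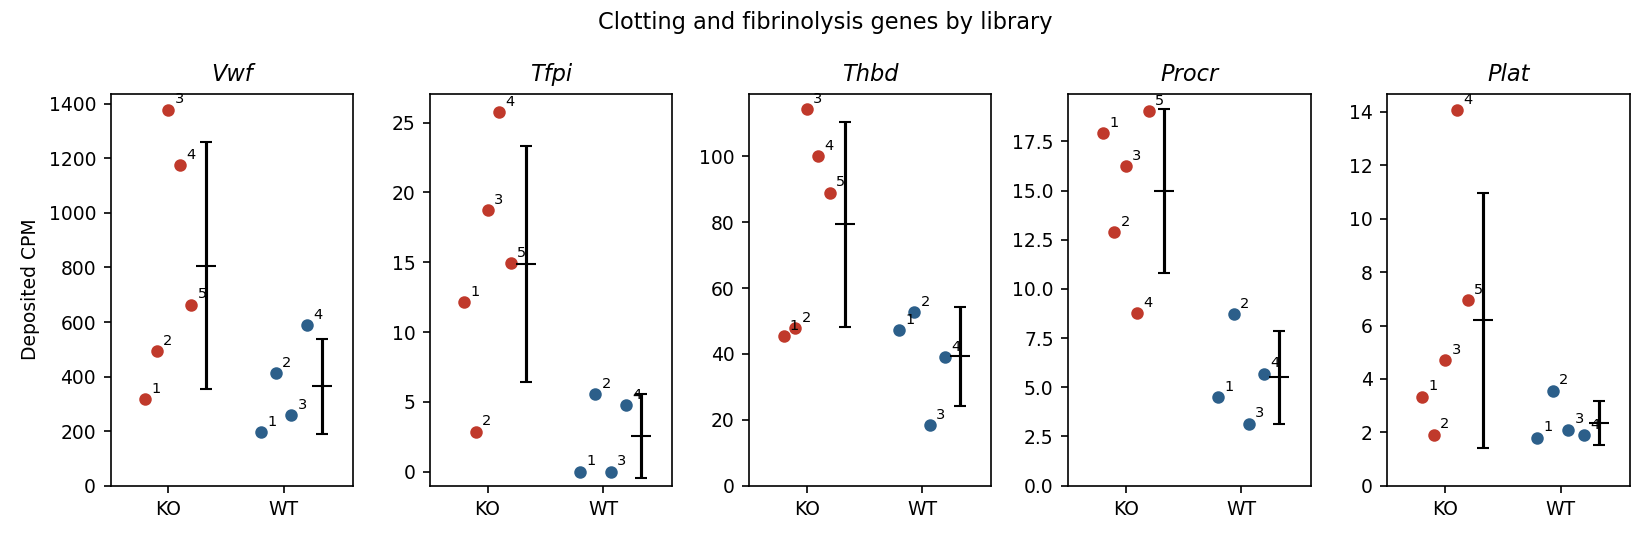
Deposited CPM (linear axes, one scale per gene) of each gene in the 5 KO libraries (red) and the 4 WT libraries (blue), numbered by replicate; black bars give the mean and SD of each group. KO replicates 3, 4 and 5 are the high libraries for Vwf, Thbd and Plat, and the Procr groups are apart by less than 0.1 CPM.

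Tfpi was the only gene of the 5 called higher in the deposited CPM. It was at 12.1, 2.87, 18.8, 25.8 and 14.9 CPM in KO replicates 1 to 5, against 0, 5.54, 0 and 4.75 CPM in WT replicates 1 to 4. Behind these values are 40, 6, 52, 44 and 58 reads in KO replicates 1 to 5, against 0, 14, 0 and 5 reads in WT replicates 1 to 4. A count of 0 reads allows up to 1.35 CPM in WT replicate 1 and 1.58 CPM in WT replicate 3, taking 3 reads as the limit. KO replicate 2 lay inside the WT range, and the other 4 KO libraries lay above every WT library.

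The log2 fold change of Tfpi was 2.43 (SE 0.693, 95% interval 1.04 to 3.83, adjusted p = 0.0130 by limma), and its exact two-sided permutation p over the CPM of 5 and 4 libraries was 0.0317. Set against the library median, the difference was 1.46 (SE 0.646, interval 0.11 to 2.80, adjusted p = 0.386 by limma), so the call did not hold on that scale. The call in the deposited CPM was also lost without WT replicate 1 (adjusted p = 0.0680 by limma) or WT replicate 3 (0.0505), the 2 libraries at 0 reads, and held in the other 7 settings that left out 1 library. EdgeR on the recovered reads with TMM scaling gave a log2 fold change of 1.61 (adjusted p = 0.525). Fold changes of genes with WT libraries at 0 reads, such as Tfpi, depend on the added 1 and are no bounds. The table gives 1 value per gene and does not separate the splice forms of Tfpi.

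Plat, the plasminogen activator of endothelium, had the fewest reads of the 5 genes in KO libraries. It was at 3.34, 1.91, 4.69, 14.1 and 6.95 CPM in KO replicates 1 to 5, which is 11, 4, 13, 24 and 27 reads, against 1.80, 3.56, 2.10 and 1.90 CPM in WT replicates 1 to 4, which is 4, 9, 4 and 2 reads. KO replicates 3, 4 and 5 lay above the highest WT library, while the 95% Poisson interval of KO replicate 3, from 2.50 to 8.02 CPM, still held the highest WT value. That interval covers counting error only. The log2 fold change was 0.90 (SE 0.665, 95% interval −0.43 to 2.24, adjusted p = 0.251 by limma) in the deposited CPM and −0.07 (SE 0.600, interval −1.32 to 1.18, adjusted p = 0.976 by limma) relative to the library median.

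The endothelial markers were also higher on average in KO libraries in the deposited CPM. All 14 endothelial markers on the list, among them Pecam1, Cdh5 and Kdr, had reads in all 9 libraries, and 13 of them were called higher in the deposited CPM, with a median log2 fold change of 1.43, beside 32.0% of all genes called higher and a median of 1.10. Relative to the library median 0 of the 14 were called, with a median of 0.45, and the mean of the 14 minus the library median was 0.47 higher in KO on the log2 scale (exact two-sided permutation p = 0.119 over 5 and 4 libraries). Their summed level was 2948, 2737, 6148, 4972 and 6328 CPM in KO replicates 1 to 5, against 880, 1702, 1203 and 3158 CPM in WT replicates 1 to 4. KO replicates 3, 4 and 5, the libraries high in Vwf, Thbd and Plat, thus held the 3 highest endothelial sums, and KO replicates 1 and 2 lay below WT replicate 4. In such captures a larger number of endothelial cells, or of their ribosomes in the pull-down, and more RNA per cell cannot be told apart.

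When each library was centred on the mean log2 value of these 14 markers, 0 of the 5 genes were called, as were 0% of all genes (1575 genes had an unadjusted p under 0.05), and the median of all genes was −0.35. On this scale the log2 fold change was −0.38 for Vwf (95% interval −1.08 to 0.33), −0.45 for Thbd (−1.30 to 0.40), −0.13 for Procr (−1.23 to 0.97) and −0.55 for Plat (−1.82 to 0.73). Tfpi stayed above 0, at 0.98 (interval −0.31 to 2.28, adjusted p = 0.510 by limma). Vwf, Thbd, Procr and Plat thus changed sign between the deposited CPM and this scale, and the intervals of all 5 included 0.

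**Figure D3:**
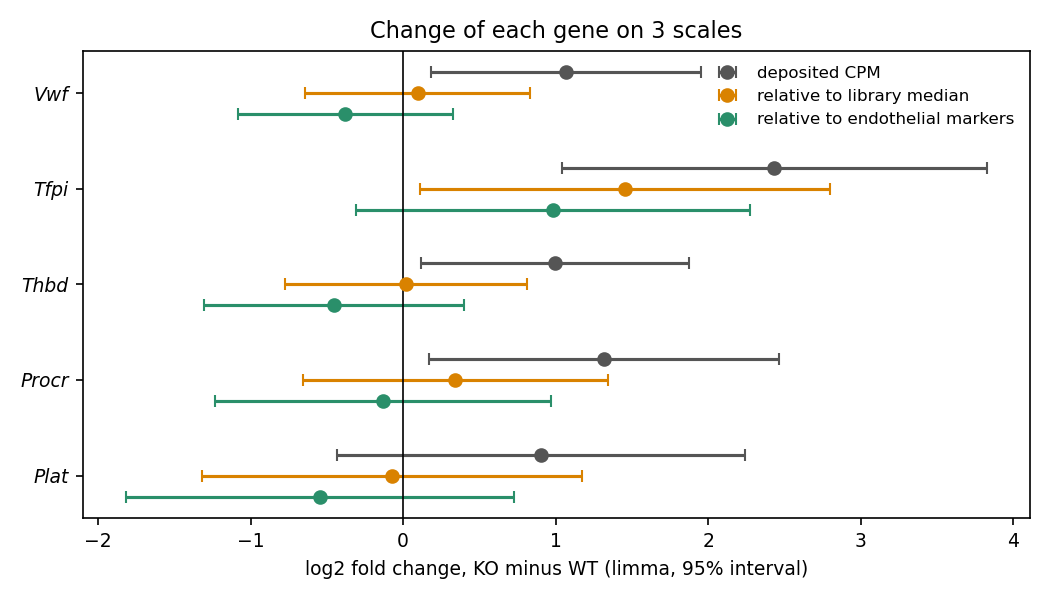
Log2 fold change, KO minus WT, of each gene in the deposited CPM (grey), relative to the library median (orange) and relative to 14 endothelial markers (green), with 95% intervals from limma over 5 KO and 4 WT libraries. Only the Tfpi interval stays above 0 relative to the library median, and all 5 intervals include 0 relative to the endothelial markers.

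The ratio of one gene to another within a library does not depend on how the library was scaled. The CPM ratio of Vwf to Thbd was 6.99, 10.3, 12.1, 11.7 and 7.46 in KO replicates 1 to 5, against 4.13, 7.83, 14.1 and 15.1 in WT replicates 1 to 4. All KO ratios lay inside the WT range (exact two-sided permutation p = 0.913 on log2 ratios of 5 and 4 libraries). Against Pecam1, the adhesion molecule CD31, the Vwf ratio was 1.65 ± 0.614 in KO (SD, n = 5) and 2.12 ± 0.495 in WT (SD, n = 4; exact permutation p = 0.254). The Thbd ratio to Pecam1 was 0.166 ± 0.0245 in KO and 0.263 ± 0.150 in WT (n = 5 and 4; exact permutation p = 0.310). It spanned 0.136 to 0.201 in KO libraries and 0.107 to 0.434 in WT libraries, so the KO range lay within the WT range.

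**Figure D4:**
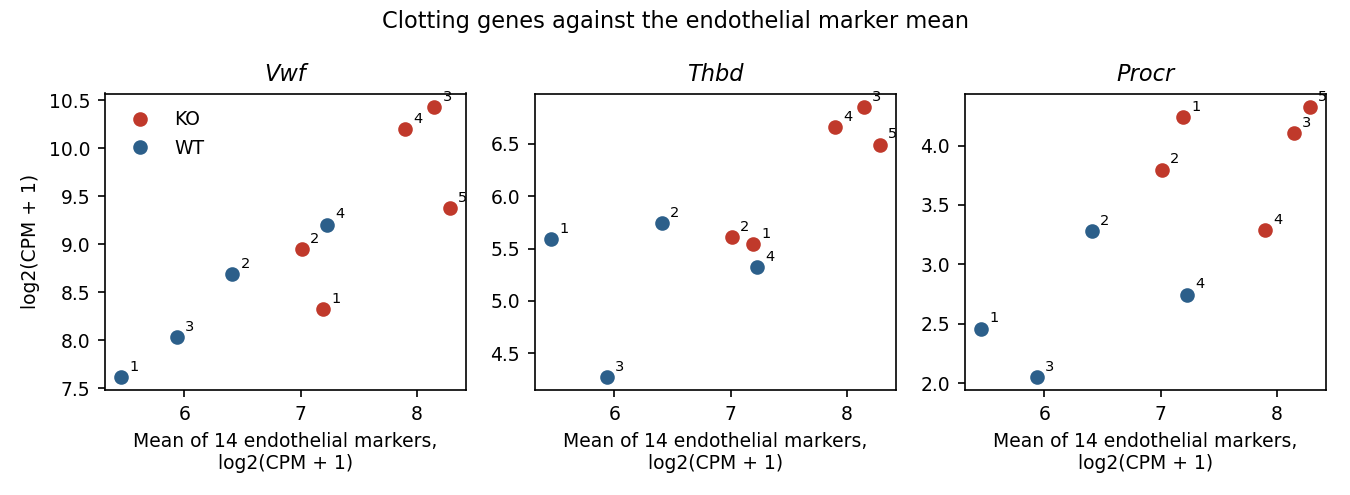
Log2(CPM + 1) of Vwf, Thbd and Procr against the mean log2(CPM + 1) of 14 endothelial markers, 1 point per library, numbered by replicate (KO red, WT blue). KO replicates 3, 4 and 5 are highest on the endothelial axis and highest for Vwf and Thbd, while the endothelial means of KO replicates 1 and 2 lie just below that of WT replicate 4.

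Markers of other cells in the tissue were measured beside these genes. The 10 mesothelial markers on the list were not analysed here. Of 11 platelet and megakaryocyte markers 3 were analysed, and their summed level was 66.8 to 275 CPM in KO libraries and 59.4 to 135 CPM in WT libraries. Most of it was Pf4, a platelet chemokine that tissue macrophages also make, at 47.1 to 268 CPM in KO and 37.3 to 115 CPM in WT. The highest platelet sum, 275 CPM, was in KO replicate 4, which held the second highest Vwf level. In that library 1 of the 3 markers, Itga2b, was at 0 CPM. The same library held the highest sum of macrophage markers, 1568 CPM. The other markers of the list were Itgb3, at 14.9 ± 9.87 CPM in KO (SD, n = 5) and 4.32 ± 4.39 CPM in WT (SD, n = 4) and called higher in the deposited CPM (log2 fold change 1.83, adjusted p = 0.0355 by limma), and Itga2b, at 5.15 ± 5.56 CPM in KO and 11.1 ± 5.67 CPM in WT and not called (−1.38, adjusted p = 0.100). Of 8 venous and large vessel markers, which include Vwf itself, 8 were analysed and 4 (50.0%) were called higher in the deposited CPM. In that fit 32.0% of all genes were called higher. Relative to the library median 0 of the 8 were called and 5 lay above 0, beside 57.9% of all genes above 0. Their sums were 664 to 2079 CPM in KO and 301 to 898 CPM in WT.

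Lymphatic markers (3 of 7 analysed) summed to 35.8 to 141 CPM in KO and 16.7 to 55.1 CPM in WT. The 10 macrophage markers summed to 724 to 1568 CPM in KO and 295 to 1148 CPM in WT, and the 7 fibroblast markers analysed of 9 to 1660 to 12717 CPM in KO and 2687 to 8884 CPM in WT. Pericyte and smooth muscle markers (6 of 10 analysed) summed to 266 to 516 CPM in KO and 96.0 to 222 CPM in WT. The 10 adipocyte markers, led by Fabp4, which endothelial cells also express, summed to 9112 to 21055 CPM in KO and 3435 to 7290 CPM in WT. In the deposited CPM 8 of these 10 had a log2 fold change above 0, as did 94.6% of all genes. Adipoq (mean 33.9 CPM in KO and 44.3 CPM in WT) and Plin1 (282 and 290 CPM) did not. Relative to the library median 4 of the 10 lay above 0, beside 57.9% of all genes, and the list median was −0.13. Skeletal muscle markers (8 of 10 analysed) summed to between 430.5 and 7780 CPM in KO and between 98.2 and 264 CPM in WT, and the highest sum was in KO replicate 5. All 8 were called higher in the deposited CPM, beside 32.0% of all genes. Relative to the library median 0 of the 8 were called by limma and 2 by DESeq2. On that scale the median log2 fold change was 1.94 for skeletal muscle and 0.32 for lymphatic markers. It was −0.76 for fibroblast, −0.30 for macrophage and −0.02 for pericyte and smooth muscle markers, beside 0.12 over all genes. The part of these cell types in the levels of the 5 genes was not tested. Without KO replicate 5 the differences in the deposited CPM were 1.09 for Vwf, 2.37 for Tfpi, 0.93 for Thbd, 1.23 for Procr and 0.81 for Plat on the log2 scale, and Tfpi was still called (adjusted p = 0.0305 by limma).

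With the mitochondrial rRNA share of each library as a covariate, the log2 fold change of Tfpi in the deposited CPM was 1.03 (adjusted p = 0.615 by limma), and that of Vwf was 0.29, of Thbd 0.94, of Procr 1.18 and of Plat 0.70, with 0 of the 5 called. When CPM were recomputed without the mitochondrial rRNAs, an alternative added after seeing the data, the log2 fold change of Tfpi was 2.47 (adjusted p = 0.0937 by limma), while Vwf was at 0.48, Thbd at 0.42, Procr at 0.82 and Plat at 0.47, and again 0 were called.

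The other genes of the clotting system were taken from 4 lists, and none of their members was called relative to the library median. The counts of calls in the deposited CPM stand beside 32.0% of all genes called higher in that fit, and groups without overlap beside 18.7% of all genes. Counts of genes above 0 relative to the library median stand beside 57.9% of all genes. Of 38 other coagulation factors and inhibitors, 17 were analysed, and 6 (35.3%) were called higher and 0 lower in the deposited CPM. Their median log2 fold change was 0.97 in the deposited CPM and −0.0041 relative to the library median, where 8 lay above 0. The genes called higher included Pros1, which encodes protein S, the cofactor of activated protein C, at 33.4, 43.0, 110, 83.2 and 111 CPM in KO replicates 1 to 5, against 24.8, 19.8, 25.7 and 20.9 CPM in WT replicates 1 to 4. The groups did not overlap for Pros1, which differed by 1.55 on the log2 scale (adjusted p = 0.0139 by limma) in the deposited CPM and by 0.57 (adjusted p = 0.590) relative to the library median.

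Mcfd2, part of the cargo receptor that carries factors V and VIII out of the endoplasmic reticulum, averaged 50.8 ± 25.6 CPM in KO (SD, n = 5) and 14.1 ± 10.7 CPM in WT (SD, n = 4). The groups differed by 1.93 on the log2 scale (adjusted p = 0.00932 by limma). Lman1, its partner in that receptor, averaged 73.9 CPM in KO and 44.5 CPM in WT and was not called (adjusted p = 0.135 by limma). Anxa5, which encodes the phospholipid-binding anticoagulant annexin A5, averaged 275 ± 97.8 CPM in KO and 104 ± 64.8 CPM in WT (log2 fold change 1.48, adjusted p = 0.0121 by limma). F10, the gene for factor X, had 77 reads over the KO libraries and 3 over the WT libraries (log2 fold change 2.24, adjusted p = 0.0205 by limma).

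Of 15 other genes of fibrinolysis, 9 were analysed, and 5 (55.6%) were called higher and 0 lower in the deposited CPM. The median log2 fold change of the 9 was 1.57, or 0.59 relative to the library median, the highest of the 4 lists, and 6 of the 9 lay above 0. Thbs1, which encodes thrombospondin 1, was at 37.6, 50.2, 64.6, 51.5 and 82.1 CPM in KO replicates 1 to 5, against 5.85, 16.2, 4.73 and 24.7 CPM in WT replicates 1 to 4. Thbs1 differed by 2.29 on the log2 scale (SE 0.490, adjusted p = 0.00372 by limma), and relative to the library median by 1.32 (SE 0.380, adjusted p = 0.173). DESeq2 on the recovered reads called it (adjusted p = 0.0465), and edgeR did not (adjusted p = 0.216).

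S100a10, which with annexin A2 forms a plasminogen-binding complex on the cell surface, was at 43.1, 56.9, 44.4, 41.0 and 82.6 CPM in KO replicates 1 to 5, against 8.10, 10.7, 9.45 and 31.4 CPM in WT replicates 1 to 4. Among the genes of this list named here, the KO range lay wholly above the WT range for S100a10, Thbs1 and Plau. Such a gap was also present in a gene of the list that was not called. Plau, the urokinase gene, was at 22.6 ± 6.29 CPM in KO (SD, n = 5) and 6.78 ± 3.94 CPM in WT (SD, n = 4). Plau had a log2 fold change of 1.77 (adjusted p = 0.0201 by limma). Plaur, the urokinase receptor gene, averaged 19.0 ± 15.1 CPM in KO and 3.05 ± 2.55 CPM in WT and overlapped between groups (log2 fold change 2.26, adjusted p = 0.0151 by limma).

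Of 11 thrombin receptors and signalling partners 10 were analysed, and 4 (40.0%) were called higher and 0 lower in the deposited CPM, with a median log2 fold change of 1.13, or 0.16 relative to the library median, where 6 lay above 0. The 4 were S1pr1, a sphingosine 1-phosphate receptor gene that protein C signalling engages, and the G protein subunit genes Gna11, Gna12 and Gna13. S1pr1 averaged 78.5 ± 27.4 CPM in KO (SD, n = 5) and 23.4 ± 9.53 CPM in WT (SD, n = 4; log2 fold change 1.69, adjusted p = 0.00932 by limma). Gna13 was at 24.9 to 57.1 CPM in KO and 1.90 to 32.8 CPM in WT (log2 fold change 2.21, adjusted p = 0.00733 by limma). Gna11 and Gna12 had log2 fold changes of 1.28 and 1.39. F2r, which encodes the main thrombin receptor PAR1, averaged 19.5 CPM in KO and 8.47 CPM in WT and was not called (log2 fold change 0.91, adjusted p = 0.180 by limma).

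Of 26 genes of Weibel-Palade bodies, the granules that store von Willebrand factor, 22 were analysed, and 5 (22.7%) were called higher and 0 lower in the deposited CPM. Their median log2 fold change was 0.97, or −0.01 relative to the library median, where 11 lay above 0. Stx3, a syntaxin of granule exocytosis, was at 17.6, 25.8, 10.8, 19.3 and 12.6 CPM in KO replicates 1 to 5, against 0, 7.52, 5.78 and 0.95 CPM in WT replicates 1 to 4 (log2 fold change 2.42, adjusted p = 0.00967 by limma). Vamp3 (1.71), Ap1g1, a subunit of the AP-1 adaptor needed to form the granules in human endothelial cells (1.69), and Ece1, the endothelin-converting enzyme (1.35), were also called higher, with these log2 fold changes in the deposited CPM. The granule membrane gene Cd63 was the fifth gene called higher (log2 fold change 1.30, adjusted p = 0.0247 by limma), at 0.33 relative to the library median. The cargo genes Selp (P-selectin), Angpt2 and Edn1 had relative log2 fold changes of −0.05, 0.50 and 0.17, and none of them was called on either scale. In the deposited CPM 21 of the 22 genes lay above 0, as did 94.6% of all genes. Unc13d lay below 0, at 2.80 ± 2.63 CPM in KO (SD, n = 5) and 7.05 ± 3.09 CPM in WT (SD, n = 4). Its log2 fold change was −1.33 (adjusted p = 0.109 by limma), or −2.31 relative to the library median (adjusted p = 0.153 by limma).

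**Figure D5:**
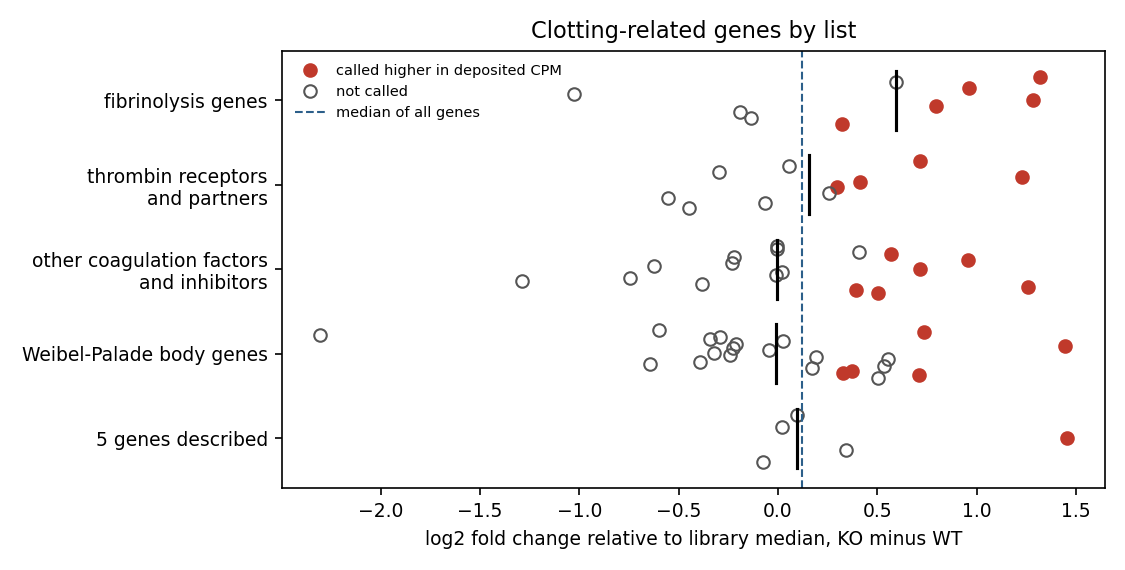
Log2 fold change relative to the library median, KO minus WT, of each analysed gene in the 4 lists and of the 5 genes described; red points were called higher in the deposited CPM, black bars are list medians and the dashed line is the median of all genes (0.12). The fibrinolysis list has the highest median, 0.59, and no point was called on the relative scale.

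Among themselves the 5 genes did not follow one pattern once the library median was removed. Over the 9 libraries Pearson's r of the relative log2 values was 0.55 between Vwf and Thbd and −0.25 between Vwf and Procr, and the highest value was 0.59, between Thbd and Plat. These are descriptions over 9 points that share library and depth, and Tfpi, Procr and Plat had few reads. By the same measure, among genes with a mean of at least 20 CPM, the 3 most like Vwf were Cavin2, a caveolar coat gene (r = 0.94, Spearman's rho = 0.95), the pseudogene Tpt1-ps6 (r = 0.93) and Glg1 (r = 0.91). Those most like Thbd were Zfp646 (r = 0.94), Rab1b (0.92) and Caskin2 (0.91). For Tfpi they were Gcn1l1 (0.96), Eif4a2 (0.94) and Smad4 (0.92), for Procr the pseudogene Hspd1-ps3 (0.93), Tlk2 (0.91) and Ivns1abp (0.91), and for Plat Ccnyl1 (0.87), Trf (0.85) and Stard8 (0.84). These were the highest of 4768 or 4769 genes searched over 9 libraries.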

How the data were processed

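RNA bound to HA-tagged ribosomes was sequenced from 5 KO and 4 WT libraries. Per the labels, the authors deposited CPM, here for 11802 genes. The columns summed to between 946406 and 990292. Tools listed without roles in the submitters' processing notes are HISAT2 2.1.0, R 4.0.2 with edgeR 3.32.0, Trimmomatic 0.39 and FastQC 0.11.9, with the builds GRCm38 and mm10. For the counter and its strand setting, the sources used here give nothing. The cDNA kit and tagmentation named in the labels' protocols do not mark strand. Of the gene identifiers, 11787 had a symbol in GENCODE M21 and 15 had none.

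Whole reads were recovered by dividing each deposited CPM value by its library's step; in each library at least 99.97% of nonzero values were within 0.1 of a whole read. The test was limma 3.58.1 (R 4.3.3) with a trend on log2(CPM + 1) over all genes, in the deposited CPM and after subtracting each library's median. A filter at a mean of 1 CPM removed 0 genes. Alternatives were pseudocounts of 0.5 and 5, a mean of at least 5 CPM, no filter, other scalings, array weights, no trend, a block for replicate number, a mitochondrial rRNA covariate, each library left out, and, since the deposited values gave whole read counts, edgeR 4.0.16 and DESeq2 1.42.0 on them.

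The 6 genes and the lists were chosen with earlier results of these data known. Named beside them, by rule, were up to 4 called genes per list with the smallest p, and the 3 genes most like each of the 5 in relative log2 values over the libraries, at a mean of at least 20 CPM and excluding predicted and mitochondrial genes. Lman1, F2r, Cd63, Unc13d, Selp, Angpt2 and Edn1, and the marker genes Pf4, Itgb3 and Itga2b, were named after their values were seen. For 1 gene of the fibrinolysis list, values are not reported here.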

Additional observations from a re-analysis of the deposited data

Results flagged for a closer look

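In 4 of 42 sets of a gene and a group the highest library stood apart from the others by more than Dixon's test allows at 95%, which chance gives in about 1 of 20 groups. Plat was at 3.56 CPM in WT replicate 2, on 9 reads, against 1.80 to 2.10 CPM in the other 3 WT libraries. Anxa5 was at 201 CPM in WT replicate 4, and S100a10 was at 31.4 CPM in the same library. Gna12 was at 154 CPM in KO replicate 5, the library with the highest skeletal muscle marker sum; the part of that in the Gna12 level was not tested.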

How the results depend on the processing

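Of the 5 genes, 1 was called higher in the deposited CPM. The count was 0 with median centring, quantile normalisation, centring on endothelial markers, the mitochondrial rRNA covariate, rescaling without mitochondrial rRNAs and edgeR, 2 without trend and 3 with array weights; edgeR without a scaling factor, which called 19.0% of all genes higher, gave 1. It ran from 0 to 4 over the settings that left out 1 library, with 4 without WT replicate 4, 3 without KO replicate 1 and 0 without WT replicate 1 or 3. DESeq2 gave Tfpi, Procr and Plat no adjusted p, so it gives no such count. The replicate block, over replicates 1 to 4, kept the count at 1 in the deposited CPM and at 0 in the relative values. Same-numbered KO and WT libraries did not deviate together (correlations of −0.04 to 0.04), so the numbers were not taken as pairs. On the relative scale the count was 0 under each alternative run. Across the whole table, calls higher in KO numbered 3780 in deposited CPM, against 1869 with the block, 5477 with array weights, 2248 with edgeR without a scaling factor, 22 with rescaling and 16 with the rRNA covariate, and between 1094 (without WT replicate 1) and 5916 (without WT replicate 4) with 1 library left out.

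Signs turned, without a call, as follows. Centring on endothelial markers gave −0.38 for Vwf, −0.45 for Thbd, −0.13 for Procr and −0.55 for Plat, against positive deposited values; relative to the library median Plat was already below 0. Thbd was at −0.20 with edgeR and −0.20 with DESeq2, and its relative value was −0.0054 at a pseudocount of 0.5 and −0.019 with rescaling. Plat in the deposited CPM turned to −0.073 with median centring and −0.42 with quantile normalisation. The relative values of Plat were 0.33 with the rRNA covariate, 0.030 with rescaling and 0.18 with edgeR, and that of Vwf was −0.075 with the covariate. With 1 library left out, relative values ran from −0.14 to 0.37 for Vwf, −0.27 to 0.34 for Thbd and −0.38 to 0.12 for Plat. The cause of these turns was not tested. Depth limits Tfpi, Procr and Plat, with at most 74 reads in a library.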
